A study of Mus musculus with 6 samples.

Results

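miR-210-3p is a single mature microRNA (miRNA), taken by its name from a table of 1960 mouse miRNAs that were counted in immune cells isolated from mouse liver; 806 of them had a count in any library and 297 were abundant enough to test. The mice were wildtype female C57BL/6J animals aged 10 weeks, in 3 groups with 2 libraries each, called biological replicates in the labels. Vehicle mice, free of disease, were given DMSO in corn oil. ConA+Vehicle mice were given the plant lectin concanavalin A (ConA), which activates T cells and causes a hepatitis, at 12.5 mg/kg through the retro-orbital sinus, with the same vehicle. ConA+D8THC mice were given that dose of ConA together with the cannabinoid delta-8-tetrahydrocannabinol (D8THC) at 20 mg/kg in 100 µL, injected intraperitoneally 15 to 18 h ahead of ConA and a second time 30 min after it. The sources used here do not give the hour at which livers were taken or how many mice stand behind a library, so that p-values measure the spread between these libraries.

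miRNAs are short RNAs that guide Argonaute proteins to messenger RNAs carrying a match to the seed, the bases near the miRNA's 5′ end. miR-210-3p is known as the miRNA most regularly raised at low oxygen, when hypoxia-inducible factor (HIF) switches on its gene, and it lowers mitochondrial respiration by acting on iron-sulphur cluster assembly. In immune cells it is also known to rise when T cells are activated.

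The sequences of the gene are shown because the seed sets which messenger RNAs a miRNA can pair with, and because the deposited counts are per arm of the hairpin. They are RefSeq's, build GRCm38.p6, the assembly also called mm10. The mature arms are written 5′ to 3′ with the seed, bases 2 to 8, in capitals.
miR-210-3p: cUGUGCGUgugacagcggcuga
miR-210-5p: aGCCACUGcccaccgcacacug
The hairpin of 110 bases follows, with the 5p arm and then the 3p arm in capitals.
Mir210 hairpin: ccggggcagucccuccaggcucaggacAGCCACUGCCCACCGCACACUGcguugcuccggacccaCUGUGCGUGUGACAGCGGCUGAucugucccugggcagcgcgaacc

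The hairpin lies on the minus strand at chr7:141221384-141221493, and miR-210-3p itself at chr7:141221407-141221428. In GENCODE M21 the gene Mir210 is a single exon that overlaps 0 other annotated genes. It sits 2726 bases from Rassf7 on one side and 7291 bases from Phrf1 on the other, and the nearest other miRNA hairpin on the chromosome, Mir7063, is 399208 bases away. Among 1679 mature mouse miRNAs searched, 1 carried the seed UGUGCGU, miR-210-3p itself. The closest other mature sequence, miR-698-5p, differed from it by 7 edits (substitutions, insertions or deletions).

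The 3p arm was nearly the sole product counted. The 6 libraries held 644 counts of miR-210-3p and 1 count of miR-210-5p, the passenger strand, so that the 3p arm made up 99.8% of the counts of the hairpin (exact Clopper-Pearson 95% interval 99.1% to 100.0%). The single 5p count was in ConA+Vehicle replicate 2, and miR-210-5p was too sparse to be tested.

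Vehicle replicates 1 and 2 held 32 and 29 counts of miR-210-3p, ConA+Vehicle replicates 1 and 2 held 97 and 72, and ConA+D8THC replicates 1 and 2 held 272 and 142. The libraries were of unequal depth, from 322764 to 1172389 counts in total, and the ConA+Vehicle libraries were the shallowest. On the CPM scale, counts relative to library size, here with TMM scaling factors, miR-210-3p was at 44.2 and 25.4 CPM in Vehicle, 242 and 238 CPM in the ConA+Vehicle libraries, and 281 and 202 CPM in ConA+D8THC. All 4 libraries of mice given ConA lay above both Vehicle libraries, and the lowest of them was 4.57-fold above the highest Vehicle library.

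**Figure D1:**
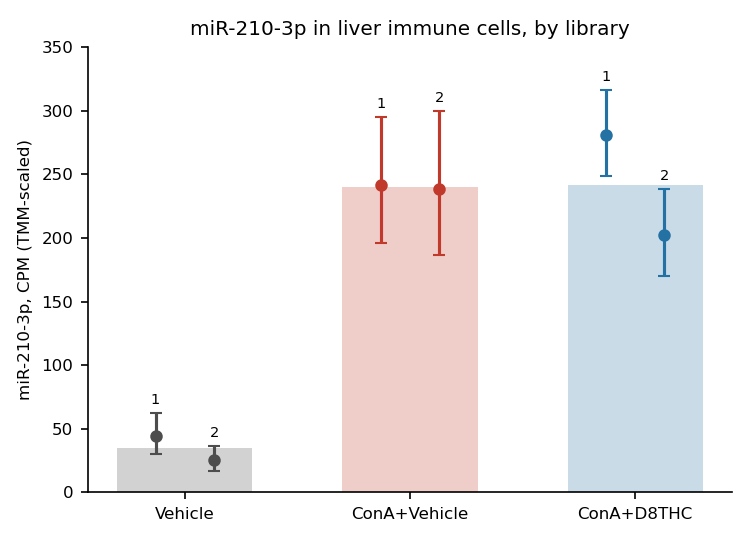
Level of miR-210-3p (y axis, TMM-scaled CPM) in each library of the 3 groups (x axis); points are libraries, numbered by replicate, whiskers are exact Poisson 95% intervals of the count, and bars are group means. The Vehicle libraries, at 44.2 and 25.4 CPM, sit below the other 4, which run from 202 to 281 CPM.

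The counts set the precision of these levels. The exact Poisson 95% interval, which covers counting error only, was 30.2 to 62.3 CPM in Vehicle replicate 1 and 17.03 to 36.5 CPM in Vehicle replicate 2, so the intervals of these libraries overlapped. In ConA+Vehicle the intervals, 196 to 295 and 186 to 300 CPM, nearly coincided. The ConA+D8THC intervals, 248 to 316 and 170 to 238 CPM, did not overlap, and replicate 1 was 1.39-fold above replicate 2.

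miR-210-3p stood higher in the abundance order in the libraries given ConA than in the Vehicle libraries. By count it ranked 181 of 539 detected miRNAs in Vehicle replicate 1 and 210 of 581 in replicate 2. With ConA it ranked 112 of 488 and 110 of 446, and with ConA and D8THC 97 of 575 and 111 of 553. Counts are not corrected for length, but the 250 tested miRNAs that matched a RefSeq sequence by name were all 19 to 26 bases long. Over all 6 libraries miR-210-3p had a mean of 172 CPM, rank 124 of the 297 tested, between miR-15b-3p at 177 CPM and miR-31-5p at 165 CPM.

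The first comparison, ConA+Vehicle against Vehicle, asked how ConA hepatitis alters the miRNAs of liver immune cells. miR-210-3p rose from 34.8 ± 13.2 CPM (SD, n = 2) in Vehicle to 240 ± 2.51 CPM in ConA+Vehicle. The increase was 7.01-fold, a log2 fold change of 2.81 ± 0.37 (SE), with a 95% interval of 3.996-fold to 12.3-fold (edgeR quasi-likelihood test, Benjamini-Hochberg adjusted p = 0.000379). In that comparison 109 of the 297 miRNAs, 36.7%, were called at an adjusted p under 0.05. The 59 called higher were 19.9% of those tested, and 16.8% were called lower.

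In the order of log2 fold changes miR-210-3p stood at rank 15 from the highest, and by p-value at rank 8. Its neighbours above were miR-20b-5p at log2 2.997 ± 0.29 and miR-21a-3p at 2.95 ± 0.37, and below it stood miR-155-5p at 2.76 ± 0.25 and miR-215-5p at 2.64 ± 1.01, the last of which was not called. The gaps between these neighbours were smaller than their standard errors.

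The comparison of ConA+D8THC against ConA+Vehicle asked what the cannabinoid altered once ConA had been given. miR-210-3p had means of 241 ± 55.6 CPM (SD, n = 2) with D8THC and 240 ± 2.51 CPM without it, and the ConA+Vehicle libraries lay between the pair of ConA+D8THC libraries. The log2 fold change was 0.01 ± 0.33, and the miRNA was not called (edgeR, adjusted p = 0.993). The 95% interval ran from 0.610-fold to 1.66-fold, so with 2 libraries a group a change within those bounds was not excluded. In this comparison 11 miRNAs were called in the main edgeR test, 3.70% of those tested, 0 higher and 11 lower. That split did not hold in every refit: DESeq2 called 5 higher and 12 lower, the replicate block gave 12 and 32, leaving out the hepatocyte and endothelial markers 5 and 9, and leaving out Vehicle replicate 2 gave 10 and 30.

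Against Vehicle, the ConA+D8THC libraries were likewise higher in miR-210-3p. The increase was 7.06-fold (log2 2.82 ± 0.36, 95% interval 4.06-fold to 12.3-fold, edgeR adjusted p = 0.000419), at rank 9 from the highest, in a comparison where 32.7% of miRNAs were called, 18.5% as higher. It shares its Vehicle libraries with the first comparison and is not a second, independent measurement of the ConA effect. By mean level the groups stood in the order ConA+D8THC, ConA+Vehicle and Vehicle, in which the groups given ConA did not differ beyond their spread.

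**Figure D2:**
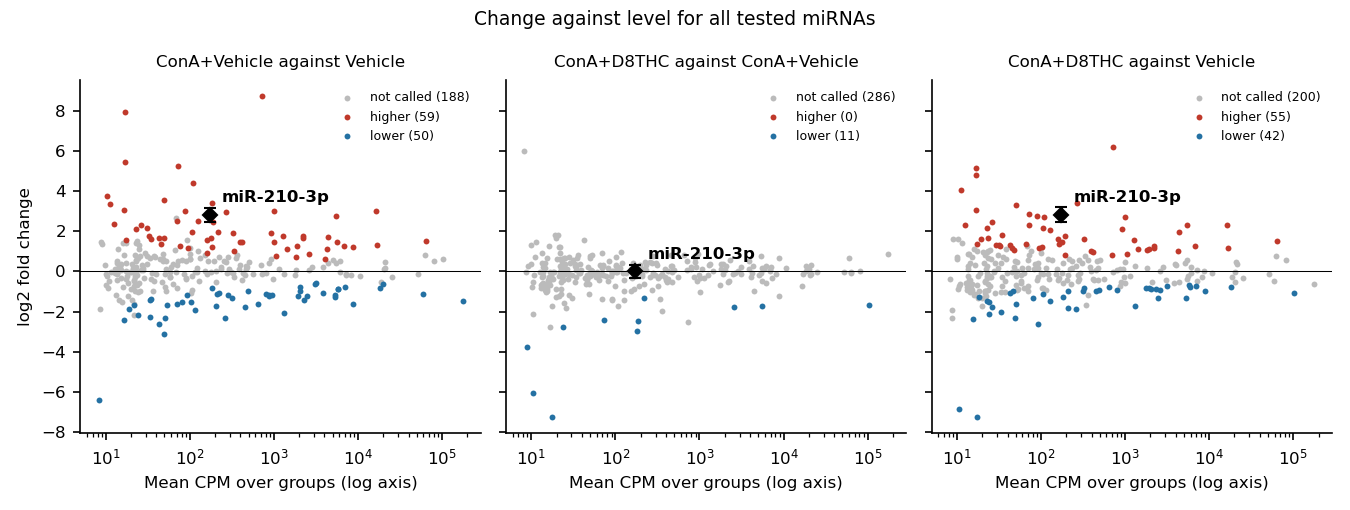
Log2 fold change (y axis) against mean CPM over the groups (x axis, log scale) for the 297 tested miRNAs in each comparison; coloured points were called at an edgeR adjusted p under 0.05, and the black diamond with its SE is miR-210-3p. It sits at 2.81 and 2.82 in the comparisons with Vehicle and at 0.01 between ConA+D8THC and ConA+Vehicle.

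The calls of miR-210-3p did not hinge on a single library or setting among those run. It was called higher in 17 of 17 refits of ConA+Vehicle against Vehicle, which gave 5.46-fold to 9.28-fold, and in 17 of 17 refits of ConA+D8THC against Vehicle, which gave 5.59-fold to 9.43-fold. The lowest and highest folds came from leaving out Vehicle replicate 2 and Vehicle replicate 1, whose levels differed by 1.74-fold. In 17 refits of ConA+D8THC against ConA+Vehicle it was called 0 times by edgeR, DESeq2 or limma-voom, and its unadjusted p in the main edgeR test was 0.976.

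The libraries held RNA of several cell types, and their marker miRNAs moved with the groups. Pan-haematopoietic markers, both arms of miR-142a, took 2.53% to 7.31% of all counts in Vehicle, 9.03% to 10.3% in the ConA+Vehicle libraries and 7.72% to 11.2% in ConA+D8THC. Endothelial markers, both arms of miR-126a, took 32.7% to 34.2%, 12.8% to 13.2% and 20.7% to 26.7% in the same order, and the 6 hepatocyte markers 8.35% to 13.9%, 17.1% to 19.7% and 5.18% to 7.15%. The hepatocyte markers did not all move alike. Among them, miR-192-5p went from 3032 and 4256 CPM in Vehicle to 8534 and 11514 CPM in ConA+Vehicle. In the same libraries miR-122-3p went from 157 and 189 CPM to 84.8 and 66.2 CPM. Both were a small part of the summed hepatocyte counts, so they do not show which members moved the share. Neither endothelial cells nor hepatocytes are immune cells, so markers of other cell types were present beside those of the labelled immune cells. In such bulk samples, more cells of a type and more miRNA per cell cannot be told apart.

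miR-210-3p was therefore also set against the markers within each library, as its count per 1000 counts of the summed markers, a ratio that does not depend on library size or scaling. With 2 libraries a group the smallest exact two-sided permutation p is 0.333, so these ratios are given without a test. Against the pan-haematopoietic pair the ratio was 0.581 and 0.978 in Vehicle, 2.47 and 2.47 in the ConA+Vehicle libraries, and 2.66 and 2.66 in ConA+D8THC. All 4 libraries given ConA were above both Vehicle libraries, and the group mean was 3.17-fold higher in ConA+Vehicle than in Vehicle, less than the 7.01-fold of the scaled level.

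Against the lymphocyte markers (miR-150-5p, miR-342-3p and miR-181a-5p) the ratio was 5.25 and 4.403 in Vehicle, 22.8 and 25.7 in the ConA+Vehicle libraries, and 28.6 and 32.3 in ConA+D8THC. Every library given ConA lay above both Vehicle libraries, and the ConA+Vehicle mean was 5.03-fold that of Vehicle. The ConA+D8THC values were above those of ConA+Vehicle, but the latter rest on 97 and 72 counts of miR-210-3p. No counting error was set on the ratios, so a difference between these groups is not read from them. These markers took 0.562% to 0.809% of counts in Vehicle, 0.868% to 1.11% in ConA+Vehicle and 0.637% to 1.04% in ConA+D8THC. Their member miR-181a-5p was not called in ConA+Vehicle against Vehicle, at log2 -0.44 ± 0.25 (edgeR adjusted p = 0.190). It was a small part of the summed lymphocyte counts and does not stand for the sum.

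Against the myeloid markers, both arms of the neutrophil and monocyte miRNA miR-223, the ratio showed no such separation. It was 12.8 and 7.003 in Vehicle, 9.24 and 7.65 in the ConA+Vehicle libraries, and 13.7 and 13.9 in ConA+D8THC. The ConA+Vehicle values lay within the range of the Vehicle values, with a group mean 0.855 times that of Vehicle. miR-223-3p, which made up most of these counts, rose 8.12-fold with ConA (edgeR adjusted p = 4.43e-05), and the myeloid markers took 0.333% to 0.353% of counts in Vehicle, 2.75% to 2.91% in the ConA+Vehicle libraries and 1.48% to 2.17% in ConA+D8THC. The part of the myeloid share in the rise of miR-210-3p was not tested.

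The ConA+D8THC libraries had the higher myeloid ratio, 1.64 times the ConA+Vehicle mean, and the 2 groups did not overlap in it. The level of miR-210-3p differed between these groups by less than its error, and that of miR-223-3p went from 26079 and 30971 CPM in ConA+Vehicle to 20294 and 14368 CPM in ConA+D8THC.

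The remaining markers gave ratios that were higher with ConA in each of the 4 libraries. Against the endothelial pair the mean ratio was 0.101 in Vehicle, 1.84 with ConA and vehicle and 1.10 in ConA+D8THC. Against the hepatocyte markers it was 0.343, 1.31 and 4.31, and against the 4 erythroid markers, miR-451a among them, 49.1, 201 and 502. Against stellate cell and fibroblast markers the ratio was 3.32 and 1.88 in Vehicle, 19.7 and 30.2 with ConA, and 40.1 and 16.3 with ConA and D8THC. Against bile duct markers it was 9.94 and 5.26, 52.8 and 52.2, and 83.4 and 40.4 in the same order. For both of these sets the ConA+D8THC replicates lay on either side of the ConA+Vehicle values. No marker miRNA was at 0 in any library, and miR-181a-5p, miR-199a-5p and miR-214-3p also stand on the lists described next.

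**Figure D3:**
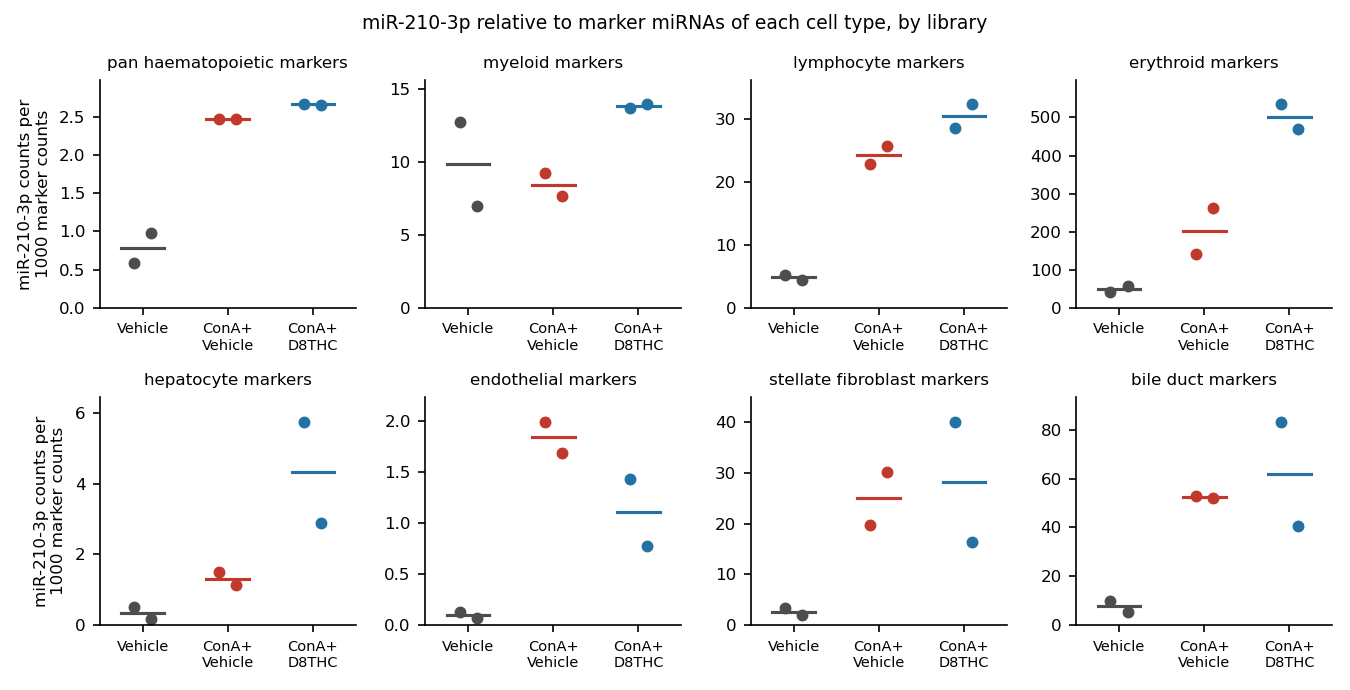
Counts of miR-210-3p per 1000 counts of the summed marker miRNAs of a cell type (y axis, a separate scale in each panel) in the 3 groups (x axis); points are libraries and lines group means. For the myeloid markers the ConA+Vehicle libraries, at 9.24 and 7.65, lie within the Vehicle range of 7.003 to 12.8, and for every other marker set all 4 libraries given ConA lie above both Vehicle libraries.

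miR-210-3p was next set beside miRNAs that are reported to respond to low oxygen in cultured cells, a list drawn from general knowledge of the field. All lists were chosen with earlier results of these data known, so their counts are descriptive. Besides the arms of miR-210 the list of miRNAs reported to rise held 15 members, all tested. In ConA+Vehicle against Vehicle 2 of the 15 rose, 5 fell and 8 were not called, against 19.9% higher and 16.8% lower over all miRNAs. Their median log2 fold change was -0.10, with 0.10 over all tested miRNAs. miR-210-3p, at 2.81 ± 0.37, and miR-155-5p, at 2.76 ± 0.25, had the highest values on the list and lay within their errors of each other; without Vehicle replicate 2 they were at 2.45 and 2.56.

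The 2 that rose were miR-155-5p and miR-21a-5p, both of which are also induced by inflammatory signals. miR-155-5p was at 1511 and 1091 CPM in Vehicle, 9125 and 8489 CPM in the ConA+Vehicle libraries, and 7285 and 5460 CPM in ConA+D8THC, a 6.77-fold rise with ConA. miR-21a-5p was at 40343 and 16407 CPM, 79048 and 85678 CPM, and 89006 and 72176 CPM in the same order, a 2.90-fold rise. For both miRNAs the libraries given ConA lay above both Vehicle libraries.

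The 5 that fell were miR-23a-3p, miR-23b-3p, miR-24-3p, miR-26a-5p and miR-27a-3p, of which miR-23a, miR-24 and miR-27a are made from a common cluster. Their log2 fold changes lay between -0.97 for miR-23b-3p and -0.62 for miR-26a-5p. These calls were less firm than that of miR-210-3p. With upper-quartile factors or with no filter on low counts 3 were called, since miR-26a-5p and miR-27a-3p were lost, and with 2 against 2 libraries 4, since miR-26a-5p was. Leaving out ConA+Vehicle replicate 2 ended all 5 calls, and leaving out ConA+Vehicle replicate 1 ended those of miR-23a-3p, miR-24-3p, miR-26a-5p and miR-27a-3p. Leaving out Vehicle replicate 2 ended those of miR-24-3p and miR-26a-5p, Vehicle replicate 1 or ConA+D8THC replicate 2 those of miR-26a-5p and miR-27a-3p, and ConA+D8THC replicate 1 that of miR-26a-5p. The 8 that were not called ran from log2 -0.44 to 0.52.

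The second list held 8 miRNAs reported to fall at low oxygen, 6 from the miR-17-92 cluster with miR-20b-5p and miR-199a-5p. In ConA+Vehicle 7 of the 8 rose and 1 fell, where 19.9% of all tested miRNAs were called higher and 16.8% lower. As 6 of the 8 belong to 1 cluster, they do not stand for 8 separate responses. Their median log2 fold change was 1.76, with 0.10 over all tested miRNAs. miR-20b-5p, the highest of them, was at 225 and 169 CPM in Vehicle, 1683 and 1453 CPM in the ConA+Vehicle libraries, and 1534 and 990 CPM in ConA+D8THC, a 7.98-fold rise with ConA. The miRNA that fell was miR-199a-5p, a stellate cell and fibroblast marker, at log2 -1.18 ± 0.27, and leaving out ConA+Vehicle replicate 2 ended its call (edgeR adjusted p = 0.0551, the highest over its refits, where 2.32e-05 was the lowest). The call of miR-19a-3p ended without ConA+Vehicle replicate 1 (edgeR adjusted p = 0.0502, the highest, where 1.07e-08 was the lowest).

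The third list held miRNAs reported to rise when T cells are activated. Besides miR-210-3p, 5 of its 12 tested members rose in ConA+Vehicle, 0 fell (by edgeR) and 7 were not called, where 19.9% of all tested miRNAs were called higher and 16.8% lower. Their median log2 fold change was 0.78, with 0.10 over all tested miRNAs. Of those that rose, miR-155-5p and miR-21a-5p, given above, also stand on the first list, and miR-18a-5p stands on the second. miR-18a-5p, of the proliferation-linked miR-17-92 cluster, rose 5.61-fold, miR-146b-5p, a brake on inflammatory signalling, rose 3.81-fold, and miR-221-3p rose 1.69-fold. The call of miR-221-3p ended in DESeq2, with no filter on low counts, and without any of Vehicle replicate 2 and the ConA+Vehicle replicates 1 and 2. miR-210-3p and miR-155-5p again had the highest log2 fold changes, in an order that turned without Vehicle replicate 2.

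In ConA+D8THC against Vehicle, where 18.5% of miRNAs were called higher and 14.1% lower, the lists gave similar counts. Besides miR-210-3p, 2 of 15 of those reported to rise at low oxygen were higher and 3 lower, 7 of the 8 reported to fall were higher, and 6 of 12 on the T cell list were higher and 1 lower. Of the 3 lower, miR-23a-3p was called in 8 of 17 refits, miR-24-3p in 10 and miR-23b-3p in 16; 0 of them were called without Vehicle replicate 2, 2 without ConA+Vehicle replicate 1, and 1 without ConA+Vehicle replicate 2, ConA+D8THC replicate 1 or ConA+D8THC replicate 2, or with no filter, library totals or 2 against 2 libraries. With the replicate block 5 members were lower, miR-26a-5p and miR-27a-3p being added. On the T cell list miR-214-3p, the 1 lower, was called in 9 of 17 refits and not by DESeq2, nor without Vehicle replicate 2, ConA+Vehicle replicate 2 or either ConA+D8THC replicate, and miR-221-3p and miR-222-3p were not called without ConA+D8THC replicate 1.

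In ConA+D8THC against ConA+Vehicle the edgeR test called 0 members of each list, as did DESeq2 and limma-voom. Over all tested miRNAs edgeR called 3.70%, so 0 calls in lists this short say little about the lists. At an unadjusted edgeR p under 0.05 there were 0 of 16, 1 of 8 and 1 of 13, miR-210-3p included. The share of all tested miRNAs under that unadjusted threshold is not given here, so these counts are not read as a result. With the replicate number as a block, edgeR called 1 member lower on each of the last 2 lists, miR-19b-3p and miR-31-5p. That refit called 32 of all 297 tested miRNAs lower. Without ConA+D8THC replicate 1, miR-199a-5p was called higher (edgeR adjusted p = 0.0351, the lowest over its refits, where 0.826 was the highest).

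**Figure D4:**
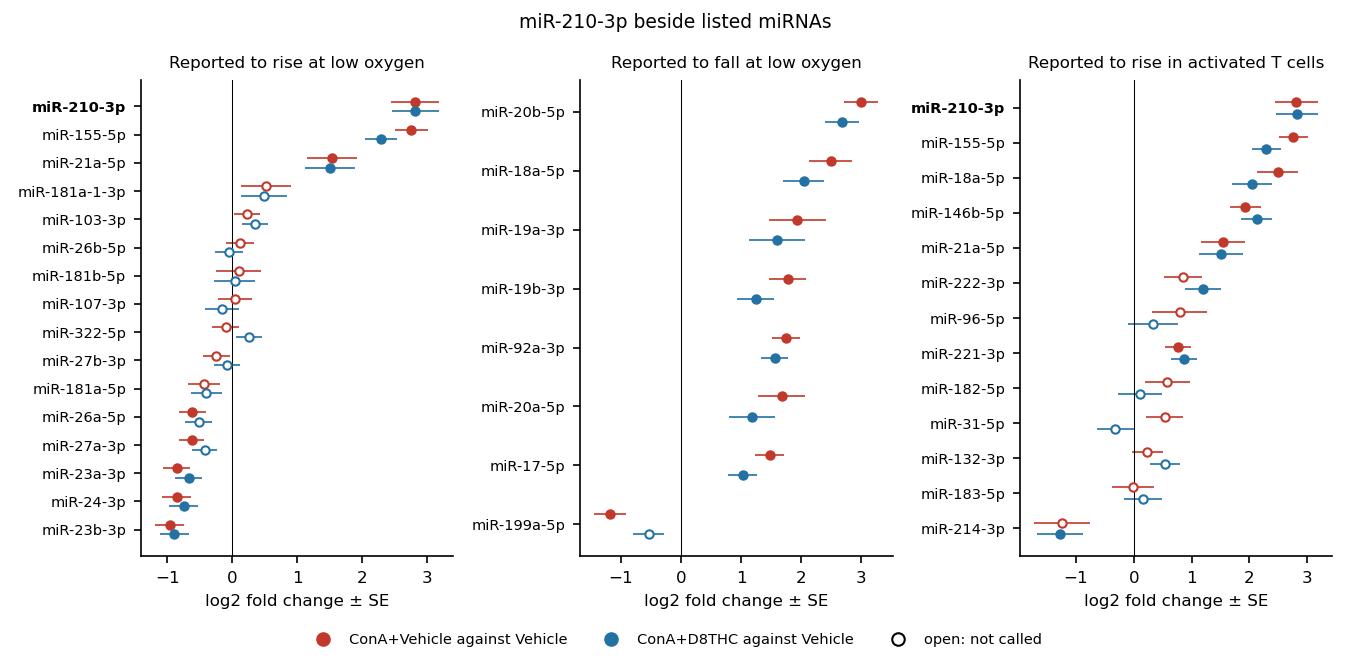
Log2 fold change with its SE (x axis) of each tested member of the 3 lists (y axis), for ConA+Vehicle against Vehicle in red and ConA+D8THC against Vehicle in blue; filled points were called at an edgeR adjusted p under 0.05 and open points were not. miR-210-3p stands at 2.81 and 2.82 on the lists of miRNAs reported to rise, and 7 of the 8 miRNAs of the second list were called higher in both comparisons, which share their Vehicle libraries.

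The miRNAs most like miR-210-3p in pattern were found by the distance between log2 CPM profiles over the 6 libraries, each profile centred on its own mean, among the 296 other tested miRNAs. The 5 nearest were miR-20b-5p (distance 0.452 log2 units), miR-147-3p (0.504), miR-155-5p (0.559), miR-21a-3p (0.617) and miR-18b-5p (0.620). Over the 6 libraries, which fall into a low pair and a high set of 4, Pearson's r with miR-210-3p was 0.985 to 0.993 for these 5, as a description of shared libraries. Ranked by r in place of distance, 2 of the 5 were again among the nearest 5, and with a prior count of 0.5 in place of 2, 4 were.

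miR-147-3p, known to be induced in macrophages through Toll-like receptors, was at 8.28 and 5.26 CPM in Vehicle, 87.3 and 66.2 CPM in the ConA+Vehicle libraries, and 83.6 and 48.4 CPM in ConA+D8THC. miR-21a-3p, the passenger strand of miR-21a, was at 55.2 and 30.7 CPM, 352 and 301 CPM, and 542 and 339 CPM in the same order. miR-18b-5p was at 27.6 and 7.89 CPM, 140 and 129 CPM, and 124 and 104 CPM. In Vehicle replicates 1 and 2, 3 counts equal 4.14 and 2.63 CPM. The Vehicle levels of miR-147-3p, and that of miR-18b-5p in replicate 2, therefore rest on few counts. In each of these 3, as in miR-210-3p, the 4 libraries given ConA lay above both Vehicle libraries and Vehicle replicate 2 was the lowest of all. They were picked for closeness to miR-210-3p over these same libraries, so the shared order follows from the choice and is not a separate result.

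Sequences of the nearest miRNAs that RefSeq lists by name are shown to set their seeds, again in capitals, beside that of miR-210-3p.
miR-20b-5p: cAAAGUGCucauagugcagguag
miR-18b-5p: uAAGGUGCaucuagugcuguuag
miR-155-5p: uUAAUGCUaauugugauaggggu
miR-21a-3p: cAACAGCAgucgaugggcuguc
miR-210-3p: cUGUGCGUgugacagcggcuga
The 5 seeds all differ. miR-20b-5p and miR-18b-5p start 222 bases apart on the minus strand of chromosome X and can share reads with their near-identical paralogs miR-20a-5p and miR-18a-5p. The others come from chromosomes 16 (miR-155-5p), 11 (miR-21a-3p) and 7 (miR-210-3p).

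**Figure D5:**
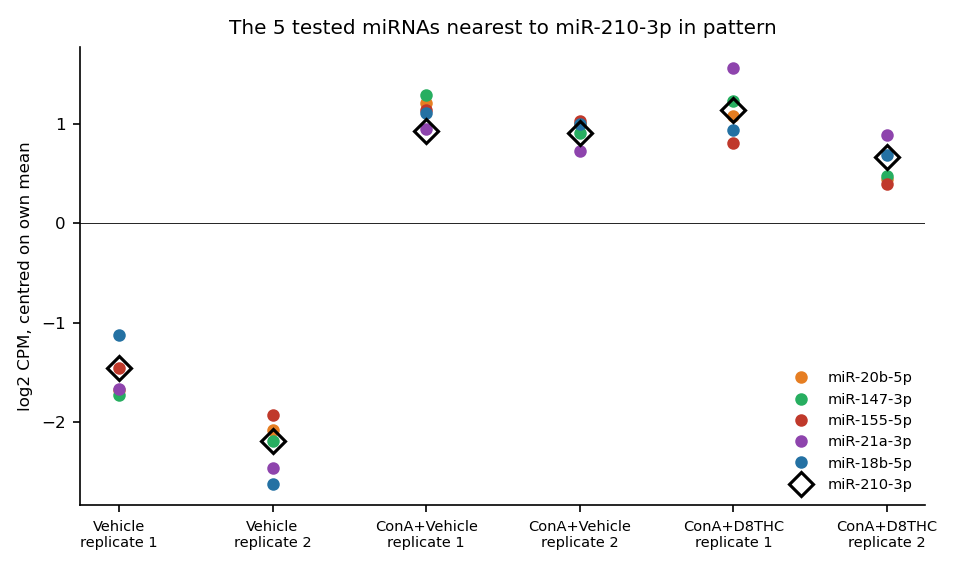
Log2 CPM with a prior count of 2, centred on each miRNA's own mean (y axis), in the 6 libraries (x axis) for miR-210-3p (open diamonds) and the 5 tested miRNAs nearest to it in pattern. The Vehicle libraries lie below and the other 4 above the mean for all 6 miRNAs, and the 5 were chosen for that likeness.

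The deposited counts hold no messenger RNA, so effects of miR-210-3p on its targets were not measured here. As context, the 7-base complement of its seed, ACGCACA, was searched on the sense strand of the longest annotated 3′ untranslated region of each protein-coding gene in GENCODE M21. It was present in 646 of 21020 genes, or 3.07%. Among 4 genes known as miR-210 targets in the literature, Efna3, which encodes an ephrin ligand of endothelial cells, had 1 match, and Gpd1l, an enzyme-like protein tied to HIF stability, had 3. Iscu, the iron-sulphur cluster scaffold, and Hif1a had 0 matches to these 7 letters in the window searched, which says nothing about shorter or imperfect pairing. The Efna3 match lies on the minus strand at chr3:89314666-89314672 and the first Gpd1l match on the minus strand at chr9:114902219-114902225 (mm10); each is shown as DNA with the match in capitals.
Efna3: acaggacctatgcaACGCACAg
Gpd1l: aactacagacacacACGCACAt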

How the data were processed

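Small RNA libraries (QIAseq kit) from liver immune cells were counted per mature miRNA. The deposited values are raw counts, made by the authors in QIAGEN's GeneGlobe portal per the series' design text, with build mm10 per the submitters' processing notes. The sources used here give no aligner or annotation release and do not say if reads or molecular identifiers were counted. Library totals were 322764 to 1172389 counts, so 3 counts equal 2.63 to 9.93 TMM-scaled CPM; intervals cover counting error only. Replicates of a group differed by far more than sampling noise, and all 6 libraries were kept.

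Counts were fitted in R 4.3.3 with edgeR 4.0.16: filterByExpr by group (297 miRNAs kept), TMM factors, 1 fit of all 6 libraries by group with 3 residual degrees of freedom, robust glmQLFit and glmQLFTest, with Benjamini-Hochberg adjustment over the 297 miRNAs and calls at 0.05. SE is the size of the log2 fold change divided by the root of F, and 95% intervals use the test's degrees of freedom. Alternatives used limma 3.58.1 and DESeq2 1.42.0. The procedure was also run on simulated counts with the same spread set for every miRNA, and no result here rests on that run. Figures used matplotlib 3.10.9 in Python 3.11.15.

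The member, lists, markers and tests were chosen with earlier results of these data known. Named besides miR-210-3p are its other arm, miRNAs of its seed, list members (those called by value), summed markers, the 5 nearest in pattern, and its neighbours in level and fold.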

Additional observations from a re-analysis of the deposited data

How the results depend on the processing

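For miR-210-3p, all refits of ConA+Vehicle against Vehicle (log2 2.45 to 3.21 with a library left out) and of ConA+D8THC against Vehicle (2.48 to 3.24) kept the direction and the call. In ConA+D8THC against ConA+Vehicle it stayed uncalled in all 17 refits, and its log2 value of 0.01 turned to -0.0995 with upper-quartile factors, -0.0124 with at least 10 CPM in 2 libraries and -0.00545 in limma-voom; without single libraries it ran from -0.23 to 0.25. With the replicate block it was -0.0115, against 2.83 and 2.82 in the comparisons with Vehicle. The numbers do not pair the libraries by the labels, and deviations of same-numbered libraries correlated at 0.203, 0.238 and 0.0726.

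Counts of called miRNAs moved more. The 11 of ConA+D8THC against ConA+Vehicle became 44 with the replicate block, 17 with upper-quartile factors, 19 with no filter, 17 in DESeq2, 18 with 2 against 2 libraries, 6 at an adjusted p under 0.01 and 26 under 0.1, and ran from 8 to 40 without single libraries. The 109 of ConA+Vehicle against Vehicle became 70 at 0.01 and ran from 67 to 129, lowest without ConA+Vehicle replicate 1. The 97 of ConA+D8THC against Vehicle became 42 at 0.01 and ran from 63 to 112, lowest without ConA+D8THC replicate 1. The cause was not tested. The other edgeR scaling factors moved the median log2 fold change of all tested miRNAs by over 0.1 in 4 places: from -0.04 to -0.15 with upper-quartile factors and to 0.06 with RLE factors in ConA+D8THC against ConA+Vehicle, from 0.10 to -0.0064 with RLE factors in ConA+Vehicle against Vehicle, and from -0.06 to 0.04 with library totals in ConA+D8THC against Vehicle. The Vehicle level of miR-210-3p rests on 61 counts over both libraries.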
